A study of Mus musculus with 18 samples.

Results

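The genes described here are 10 actin and actin-linked genes of the contractile programme driven by serum response factor (SRF), measured in mouse primary hepatocytes that overexpressed a form of the coactivator PGC-1alpha and then received the inflammatory cytokine TNFalpha or its vehicle. They are the actins Acta1, Acta2, Actb, Actg1 and Actg2, the actin-binding proteins Tagln, Cnn1 and Tpm1, the myosin light chain Myl9 and the adhesion protein Vcl. Each gene was represented by its brightest probe set, by the mean over all arrays, among those annotated to that gene alone, and its other probe sets served as a check. Of the 10 genes, 9 were measured, out of 15491 genes in all, and Myl9, a myosin regulatory light chain, was not analysed here.

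Wild-type hepatocytes from C57BL/6J mice were infected for 48 hours with an adenovirus carrying PGC-1a1, PGC-1a4 or no PGC-1alpha insert (vector). All viruses, the vector included, also expressed GFP. They were then given 2 ng per mL TNFalpha or, as vehicle, PBS, for 2 hours. PGC-1a1 is the full-length coactivator, and PGC-1a4 is a truncated splice variant. Total RNA was hybridised to Affymetrix mouse arrays, with 3 arrays in each of the 6 groups. The labels do not tell whether a group's 3 arrays hold RNA of separate cultures or mice. A p-value below therefore reflects only how these arrays scatter, and that scatter may be technical.

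Actin is both a structural protein and a sensor of its own assembly. Unassembled actin holds the SRF cofactors MRTF-A and MRTF-B in the cytoplasm, and when actin assembles into filaments the cofactors enter the nucleus and activate SRF at CArG boxes near contractile and cytoskeletal genes. A second group of SRF partners, the ternary complex factors Elk1, Elk3 and Elk4, serves the immediate early genes. In liver, Acta2 and Tagln are best known from smooth muscle and activated stellate cells, whereas Actb and Actg1 are made by every cell type.

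The CArG box, the site that SRF binds, was searched for without mismatch in RefSeq promoter windows of GRCm38.p6, which run from 250 bases before to 50 bases after a start site. A site on one strand is also one on the other, and no other motif was searched. Windows were held for 7 of the 10 genes, and 4 of these contained a CArG box, in Acta1, Actg1, Vcl and the unmeasured Myl9. The site occurred in 1.63% of all 32851 windows. The 100 bases around it are shown for the 3 measured genes on the strand of the gene, with the CArG box in capitals. By their brightest probe sets these 3 genes behaved differently in the arrays below, and for Vcl the direction depended on the probe set. Acta1 is at chr8:123894794-123894893 on the minus strand, with the box at positions -73 to -64 from the start site. Actg1 is at chr11:120348531-120348630 on the minus strand, with the box at -90 to -81. Vcl is at chr14:20929148-20929247 on the plus strand, with the box at -227 to -218.
Acta1: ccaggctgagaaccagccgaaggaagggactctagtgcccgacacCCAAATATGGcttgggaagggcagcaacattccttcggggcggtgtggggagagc
Actg1: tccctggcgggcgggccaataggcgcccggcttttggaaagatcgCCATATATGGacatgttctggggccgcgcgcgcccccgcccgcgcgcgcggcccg
Vcl: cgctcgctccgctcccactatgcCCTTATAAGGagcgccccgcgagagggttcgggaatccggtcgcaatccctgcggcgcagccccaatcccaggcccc
These letters are a description of the sequence, and binding of SRF was not measured. The windows of Acta2, Cnn1 and Tpm1 held no exact match, which says nothing of SRF at these genes.

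The deposited values are log2 levels, and a level of one probe set is not comparable with that of another. The 9 arrays of each treatment differed from those of the other treatment as a whole. Array medians lay between 7.24 and 7.32 in the PBS arrays and between 7.04 and 7.10 in the TNF arrays, and Pearson's r between arrays within a group was 0.992 to 0.997. Treatment and array set cannot be told apart in any comparison of TNF with PBS, and the comparisons between viruses were made within a treatment. Of 8 hepatocyte markers 5 were measured, and Alb, the main plasma protein of hepatocytes, had group means from 15.55 to 15.68. Cyp2e1, a hepatocyte cytochrome, had group means from 8.69 to 13.34, and Hnf4a, a hepatocyte transcription factor, from 8.99 to 12.06, so the markers did not behave as 1 block across the array sets.

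Acta1, the actin of skeletal muscle, had the widest range of the 9 genes. Its level was 12.70, 12.92 and 12.83 in the vector PBS arrays, 12.46, 12.50 and 12.33 with PGC-1a1 and 12.94, 12.53 and 12.89 with PGC-1a4. In the TNF arrays it was 8.52, 8.54 and 8.62 with vector, 8.54, 8.01 and 8.30 with PGC-1a1 and 9.01, 8.95 and 8.73 with PGC-1a4. Every TNF array was thus below every PBS array, by over 3 log2 units. With vector the TNF arrays of Acta1 were 19.1-fold lower (log2 difference -4.26 ± 0.13 SE, n = 3 arrays per group, limma adjusted p = 6.61e-14), and 3 of the 15491 genes had a lower difference. With PGC-1a1 the difference was -4.15 ± 0.13 (limma adjusted p = 1.8e-13), with 1 gene lower, and with PGC-1a4 it was -3.89 ± 0.13 (limma adjusted p = 2.03e-13), with 0 genes lower.

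Acta2, the actin of smooth muscle, fell less. It read 10.78, 10.88 and 10.80 with vector, 10.39, 10.53 and 10.22 with PGC-1a1 and 10.90, 10.74 and 10.94 with PGC-1a4 under PBS. Under TNF it read 9.94, 10.09 and 9.80 with vector, 9.18, 9.29 and 9.22 with PGC-1a1 and 9.43, 9.32 and 9.18 with PGC-1a4. The vector TNF arrays lay between the PBS arrays and the TNF arrays of both PGC-1alpha forms, with no overlap on either side. The TNF arrays of Acta2 were lower by -0.87 ± 0.10 with vector (1.83-fold, limma adjusted p = 3.62e-07), by -1.15 ± 0.10 with PGC-1a1 (2.22-fold, limma adjusted p = 1.35e-08) and by -1.55 ± 0.10 with PGC-1a4 (2.93-fold, limma adjusted p = 2.49e-10).

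Actg2, the enteric smooth muscle actin, was dim. It read 7.10, 7.06 and 7.08 with vector, 7.23, 6.96 and 7.02 with PGC-1a1 and 7.10, 7.19 and 7.09 with PGC-1a4 under PBS, and 6.27, 5.69 and 5.95, then 5.50, 6.13 and 5.73, then 5.66, 6.02 and 5.57 under TNF in the same order of viruses. All 9 TNF arrays were below the lower quartile of the genes on the TNF arrays, which was 6.30 to 6.40. The difference between TNF and PBS arrays was -1.11 ± 0.16 with vector (limma adjusted p = 6.1e-06), -1.28 ± 0.16 with PGC-1a1 (limma adjusted p = 1.21e-06) and -1.37 ± 0.16 with PGC-1a4 (limma adjusted p = 4.72e-07), and at this signal its size is uncertain. The actins are near-identical in coding sequence, and whether the probes of Acta1, Acta2 and Actg2 tell them apart was not tested.

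Actb and Actg1, the cytoplasmic actins, were bright in every array. Actb read 15.54, 15.47 and 15.54 with vector, 15.51, 15.51 and 15.53 with PGC-1a1 and 15.57, 15.57 and 15.55 with PGC-1a4 under PBS. Under TNF it read 14.35, 14.40 and 14.34 with vector, 14.46, 14.52 and 14.55 with PGC-1a1 and 14.68, 14.73 and 14.66 with PGC-1a4, so the 3 viruses did not overlap. The TNF arrays were lower by -1.15 ± 0.06 with vector (2.22-fold, limma adjusted p = 4.42e-11), -1.01 ± 0.06 with PGC-1a1 (limma adjusted p = 3.42e-10) and -0.87 ± 0.06 with PGC-1a4 (limma adjusted p = 1.66e-09). This direction holds for the brightest probe set and turns in the second one, described below. Actg1 had the smallest range of group means, 0.42, and 14.2% of all genes had a smaller one. It read 14.70, 14.66 and 14.72 with vector, 14.65, 14.67 and 14.69 with PGC-1a1 and 14.60, 14.59 and 14.70 with PGC-1a4 under PBS, and 14.29, 14.27 and 14.27, then 14.35, 14.50 and 14.53, then 14.46, 14.47 and 14.36 under TNF. Every TNF array of Actg1 was below every PBS array, and the difference with vector was -0.42 ± 0.07 (1.33-fold, limma adjusted p = 4.98e-05). With PGC-1a1 it was -0.21 ± 0.07 (limma adjusted p = 0.0143) and with PGC-1a4 -0.20 ± 0.07 (limma adjusted p = 0.0208). The PGC-1a1 call of Actg1 was lost without replicate 1 of the PGC-1a1 TNF group (-0.16, limma adjusted p = 0.08), with arrays centred on their medians (-0.10, limma adjusted p = 0.202) and in a fit of the compared arrays alone (limma adjusted p = 0.0578). The PGC-1a4 call was lost without replicate 3 of the PGC-1a4 PBS group (-0.16, limma adjusted p = 0.0889) or replicate 3 of the PGC-1a4 TNF group (-0.16, limma adjusted p = 0.0883), and in a fit of the compared arrays alone (limma adjusted p = 0.0544).

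Tagln encodes transgelin, a smooth muscle protein that bundles actin filaments. It read 9.83, 10.07 and 10.08 with vector, 9.24, 9.28 and 9.20 with PGC-1a1 and 10.24, 10.07 and 10.05 with PGC-1a4 under PBS. Under TNF it read 9.13, 8.91 and 9.24 with vector, 8.51, 8.46 and 8.31 with PGC-1a1 and 8.27, 8.51 and 8.23 with PGC-1a4. The PGC-1a1 PBS arrays overlapped the vector TNF arrays, and the 2 groups were neighbours in the order of levels. The difference between TNF and PBS arrays was -0.90 ± 0.11 with vector (limma adjusted p = 6.36e-07), -0.81 ± 0.11 with PGC-1a1 (limma adjusted p = 2.5e-06) and -1.78 ± 0.11 with PGC-1a4 (3.44-fold, limma adjusted p = 1.06e-10).

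Cnn1 encodes calponin, which binds actin and inhibits myosin in smooth muscle. It read 9.56, 9.92 and 9.77 with vector, 9.08, 9.15 and 8.92 with PGC-1a1 and 9.996, 9.47 and 9.84 with PGC-1a4 under PBS, and 6.83, 6.92 and 6.78, then 6.45, 6.55 and 6.63, then 6.46, 6.52 and 6.10 under TNF. As for Acta1, the PBS and TNF arrays were far apart, with at least 2 log2 units between group means of any PBS and any TNF group. The difference with vector was -2.91 ± 0.13 (7.49-fold, limma adjusted p = 4.76e-12), with 27 genes lower. It was -2.51 ± 0.13 with PGC-1a1 (limma adjusted p = 4.72e-11), with 24 genes lower, and -3.41 ± 0.13 with PGC-1a4 (limma adjusted p = 9.91e-13), with 4 genes lower. With PGC-1a4 under TNF replicate 3 of Cnn1, at 6.10, was below the lower quartile of the genes on the TNF arrays, 6.30 to 6.40, so the size and rank of this last difference are uncertain.

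Tpm1 encodes a tropomyosin, the rod-like protein that lies along actin filaments. It read 12.99, 13.22 and 13.15 with vector, 12.73, 12.83 and 12.89 with PGC-1a1 and 13.08, 13.04 and 13.02 with PGC-1a4 under PBS, and 11.96, 12.04 and 12.02, then 11.96, 12.01 and 12.10, then 12.22, 12.20 and 12.06 under TNF. Under TNF the PGC-1a1 arrays overlapped both other groups, and the PGC-1a4 arrays were all above the vector arrays. The TNF arrays were lower by -1.11 ± 0.08 with vector (limma adjusted p = 1.08e-09), -0.80 ± 0.08 with PGC-1a1 (limma adjusted p = 1.01e-07) and -0.89 ± 0.08 with PGC-1a4 (limma adjusted p = 2.12e-08).

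Vcl, or vinculin, links actin filaments to focal adhesions, and it had another order of groups. Its brightest probe set read 11.58, 11.79 and 11.62 with vector, 11.36, 11.48 and 11.48 with PGC-1a1 and 11.69, 11.79 and 11.73 with PGC-1a4 under PBS. Under TNF it read 12.19, 12.31 and 12.32 with vector, 11.47, 11.54 and 11.53 with PGC-1a1 and 12.50, 12.44 and 12.41 with PGC-1a4. The vector and PGC-1a4 TNF arrays were above all PBS arrays, whereas the PGC-1a1 TNF arrays stayed below the vector and PGC-1a4 PBS arrays. By this probe set the TNF arrays were higher with vector (0.61 ± 0.08, 1.53-fold, limma adjusted p = 1.46e-06) and with PGC-1a4 (0.71 ± 0.08, limma adjusted p = 2.24e-07), and the difference with PGC-1a1 was 0.08 ± 0.08 (95% interval -0.08 to 0.24, limma adjusted p = 0.381). The last value turned to -0.45 (limma adjusted p = 1.18e-05) under quantile normalization of all arrays and to -0.34 (limma adjusted p = 0.000164) under cyclic loess, whereas it became 0.19 (limma adjusted p = 0.0282), called higher, with arrays centred on their medians.

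**Figure D1:**
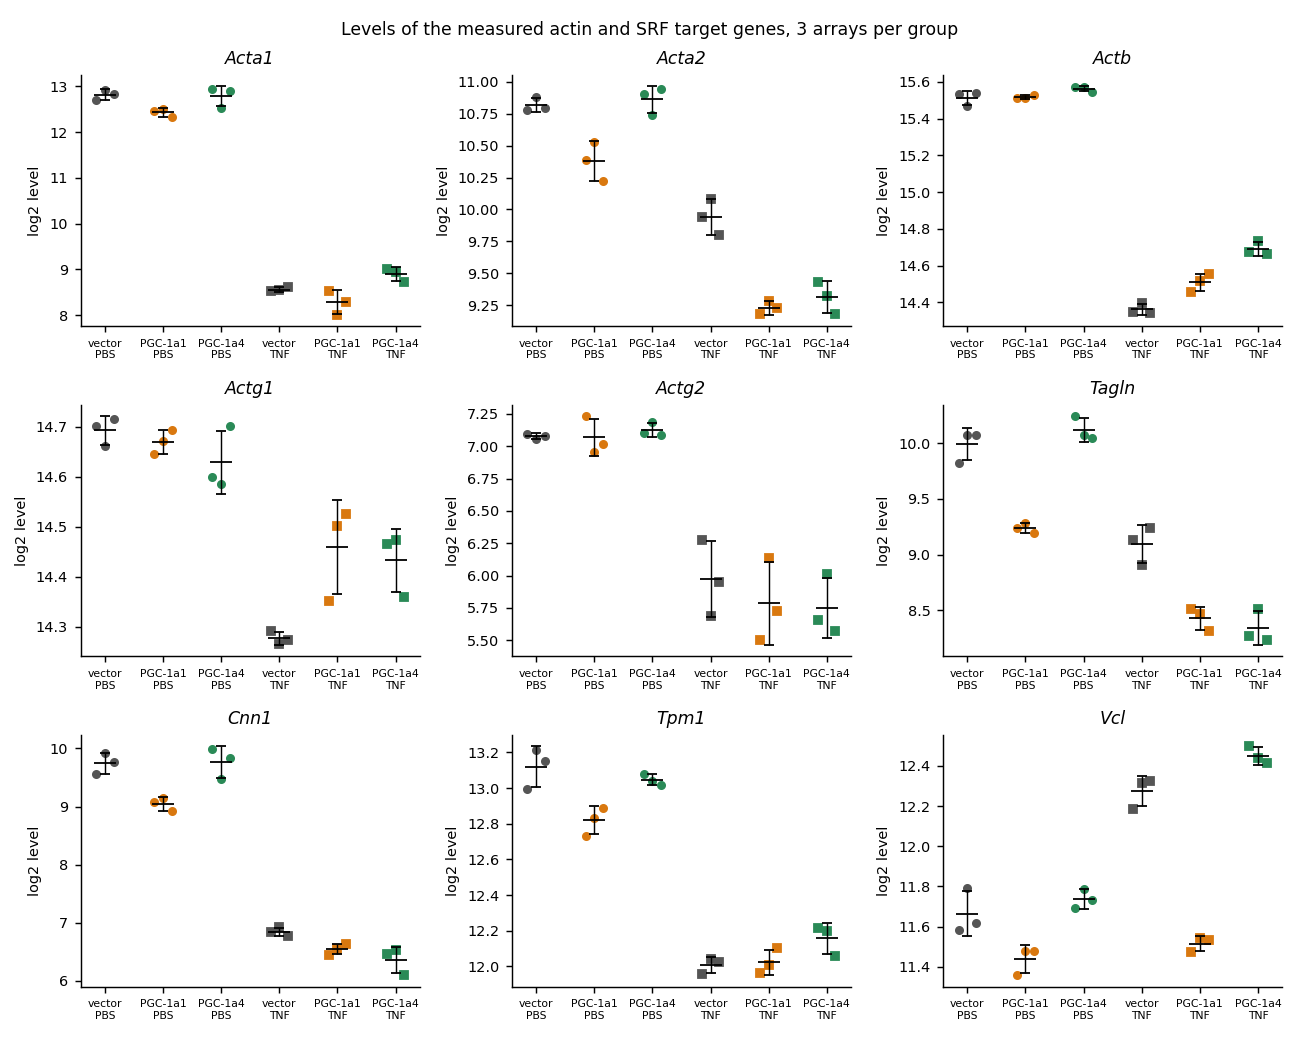
Log2 levels (y axis) of the 9 measured genes in the 6 groups (x axis), each coloured point 1 array, circles PBS and squares TNF, with the black bar and whiskers the mean ± SD of 3 arrays. All TNF arrays lie below all PBS arrays in 7 panels, in the Tagln panel the vector TNF arrays overlap the PGC-1a1 PBS arrays, and in the Vcl panel the vector and PGC-1a4 TNF arrays lie above them.

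Counted together by their brightest probe sets, 8 of the 9 genes were lower and 1 was higher in the vector TNF arrays than in the vector PBS arrays, where 71.3% of all genes passed the threshold of an adjusted p of 0.05, 34.7% higher and 36.6% lower. With PGC-1a1 8 were lower and 0 higher, against 69.6% of all genes, 34.6% higher and 35% lower. With PGC-1a4 8 were lower and 1 higher, against 70.2% of all genes, 37.4% higher and 32.8% lower. The median log2 difference of the 9 genes was -1.11 for vector, -1.01 for PGC-1a1 and -1.37 for PGC-1a4, and that of all genes was -0.04, -0.04 and 0.02. Since most genes passed in these comparisons, a pass by itself separates these genes little from the rest, and the counts are read with the sizes above. By their second probe sets, described below, Actb was higher and Vcl lower in the TNF arrays with every virus, so these counts depend on the probe set. The 3 comparisons are within separate viruses and share no arrays, but in each of them treatment and array set cannot be told apart.

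**Figure D2:**
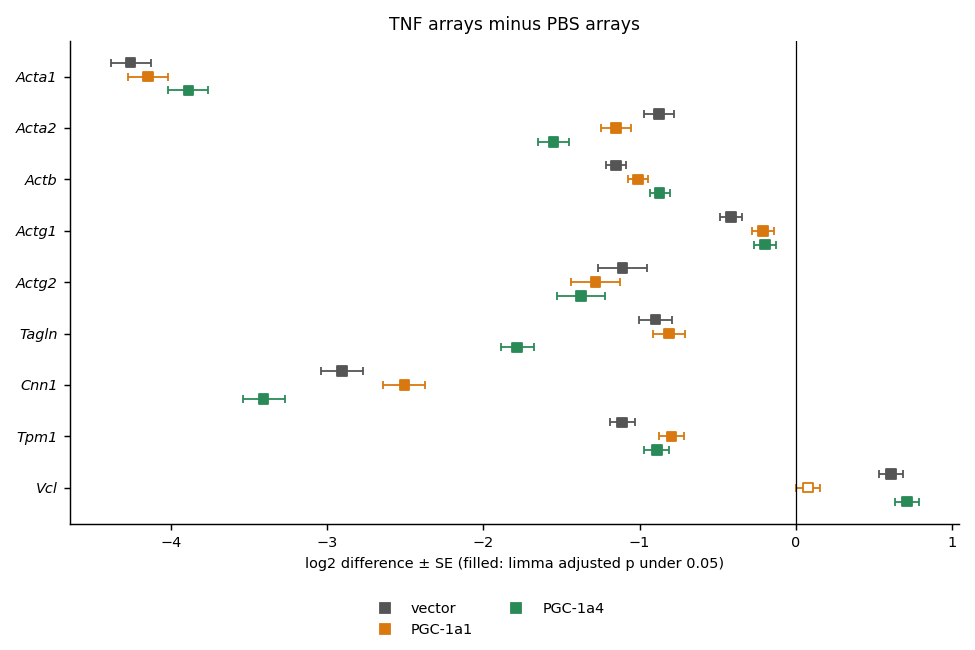
Log2 difference of TNF minus PBS arrays (x axis, ± SE) for the 9 genes (y axis) with vector, PGC-1a1 and PGC-1a4, filled where the limma adjusted p was under 0.05. Acta1 and Cnn1 lie farthest to the left, and Vcl lies right of 0, with an open symbol for PGC-1a1 at 0.08.

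Under PBS, Tagln, Cnn1, Acta2 and Tpm1 were lower with PGC-1a1 than with vector. Tagln fell by 0.75 on the log2 scale (difference -0.75 ± 0.11, limma adjusted p = 7.53e-05). Cnn1 fell by 0.70 (-0.70 ± 0.13, limma adjusted p = 0.00162), and in both genes the PGC-1a1 arrays were below every vector array. Acta2 was lower by -0.44 ± 0.10 (limma adjusted p = 0.00544), also without overlap, a call that was lost when its second, dim probe set was averaged in (-0.24, limma adjusted p = 0.136). Tpm1 was lower by -0.30 ± 0.08 (limma adjusted p = 0.0172), and its call was lost without vector replicate 2 (-0.25), vector replicate 3 (-0.29) or PGC-1a1 replicate 1 (-0.26), with the mean of its probe sets (-0.25, limma adjusted p = 0.152) and in a fit of the compared arrays alone (-0.30, limma adjusted p = 0.0741). These 4 of 9 genes were called lower and 0 higher, where 12% of all genes passed, 7.88% higher and 4.11% lower. Acta1 had a difference of -0.39 ± 0.13 (limma adjusted p = 0.0596) and Vcl of -0.23 ± 0.08 (limma adjusted p = 0.0673), neither past the threshold although their arrays did not overlap those of the vector. Actb, Actg1 and Actg2 had differences of 0.00 ± 0.06, -0.02 ± 0.07 and -0.01 ± 0.16, with 95% intervals from -0.13 to 0.14, -0.17 to 0.13 and -0.34 to 0.32.

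PGC-1a4 under PBS gave no call among the brightest probe sets of the 9 genes. The second Actb probe set, described below, was lower than with vector by -1.002 ± 0.10 (limma adjusted p = 3.37e-05). With the mean of the probe sets Actb was lower by -0.48 (limma adjusted p = 0.00332). By the brightest probe sets 0 passed the adjusted threshold and 0 had an unadjusted limma p under 0.05, where 0.207% of all genes passed, 0.0775% higher and 0.129% lower. Their log2 differences ran from -0.07 for Tpm1 to 0.13 for Tagln, with 95% intervals of -0.24 to 0.09 and -0.09 to 0.35. The 95% interval of Acta1 was -0.30 to 0.24 and that of Cnn1 -0.27 to 0.30, which leaves room for changes of up to about 0.3 on the log2 scale in these 2 genes.

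Set directly against PGC-1a4, PGC-1a1 was lower in 4 of 9 genes and higher in 0 under PBS by the brightest probe sets. Of all genes 17.4% passed, 10.3% higher and 7.08% lower. Actb, at -0.05 ± 0.06 by its brightest probe set, was higher by 1.17 ± 0.10 (limma adjusted p = 2.14e-07) in its second. With the mean of the probe sets Actb was higher by 0.56 (limma adjusted p = 1.27e-05). Tagln differed by -0.88 ± 0.11 (limma adjusted p = 1.18e-05), Cnn1 by -0.72 ± 0.13 (limma adjusted p = 0.000912), Acta2 by -0.48 ± 0.10 (limma adjusted p = 0.00181) and Vcl by -0.30 ± 0.08 (limma adjusted p = 0.0102). The Vcl call was lost without PGC-1a1 replicate 1 (-0.26, limma adjusted p = 0.0544) and with the mean of its probe sets (-0.17). It was also lost with the second Vcl probe set alone (-0.04, limma adjusted p = 0.918). Acta1 (-0.36 ± 0.13, limma adjusted p = 0.0684) and Tpm1 (-0.23 ± 0.08, limma adjusted p = 0.0585) did not pass.

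Under TNF, Vcl, Acta2 and Tagln were lower with PGC-1a1 than with vector. The difference was -0.76 ± 0.08 for Vcl (limma adjusted p = 2.69e-07), -0.71 ± 0.10 for Acta2 (limma adjusted p = 1.13e-05) and -0.67 ± 0.11 for Tagln (limma adjusted p = 5.32e-05). Actg1 was higher by 0.18 ± 0.07 (limma adjusted p = 0.0478), a call lost without each of the vector TNF arrays (limma adjusted p from 0.0814 to 0.102), without PGC-1a1 TNF replicate 2 or 3 (0.16 and 0.15) and under each other scaling (0.04 to 0.17). In all 3 were lower and 1 higher of 9, where 41.3% of all genes passed, 20.8% higher and 20.5% lower. Cnn1 had a difference of -0.30 ± 0.13 (limma adjusted p = 0.0857), Acta1 of -0.28 ± 0.13 (limma adjusted p = 0.0959), Actb of 0.15 ± 0.06 (limma adjusted p = 0.077) and Tpm1 of 0.01 ± 0.08 (95% interval -0.15 to 0.18). The difference of Actg2 was -0.19 ± 0.16.

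Under TNF, Tagln, Acta2 and Cnn1 were lower and Actb was higher with PGC-1a4 than with vector. Tagln was lower than with vector by -0.76 ± 0.11 (limma adjusted p = 3.29e-05), Acta2 by -0.63 ± 0.10 (limma adjusted p = 9.34e-05) and Cnn1 by -0.48 ± 0.13 (limma adjusted p = 0.00998). The Cnn1 call was lost without PGC-1a4 TNF replicate 3 (-0.35, limma adjusted p = 0.06). Actb was higher by 0.33 ± 0.06 (limma adjusted p = 0.000706) in its brightest probe set and by 0.04 ± 0.10 in its second (limma adjusted p = 0.789). These calls, 3 lower and 1 higher of 9, stand where 33.5% of all genes passed, 21.1% higher and 12.3% lower. Acta1 (0.34 ± 0.13, limma adjusted p = 0.0522), Vcl (0.18 ± 0.08, limma adjusted p = 0.0888), Actg1 (0.16 ± 0.07), Tpm1 (0.15 ± 0.08) and Actg2 (-0.22 ± 0.16) did not pass. Both virus comparisons under TNF share the vector arrays.

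By the brightest probe sets the 2 forms of PGC-1alpha differed under TNF in Vcl, Acta1 and Actb. For PGC-1a1 minus PGC-1a4 the difference of Vcl was -0.93 ± 0.08 (limma adjusted p = 3.2e-08), that of Acta1 -0.61 ± 0.13 (limma adjusted p = 0.000914) and that of Actb -0.18 ± 0.06 (limma adjusted p = 0.0335), with 0 genes higher, where 36.5% of all genes passed, 15.2% higher and 21.3% lower. The Actb call was lost without 1 of any of the 6 arrays compared except PGC-1a1 replicate 3, with an adjusted p from 0.0503 to 0.114. The second probe sets did not pass, at -0.28 ± 0.13 for Vcl (limma adjusted p = 0.113) and -0.09 ± 0.10 for Actb (limma adjusted p = 0.52). Acta2 differed by -0.08 ± 0.10 (95% interval -0.29 to 0.12), Tagln by 0.09 ± 0.11 (-0.13 to 0.31) and Cnn1 by 0.18 ± 0.13 (-0.10 to 0.47).

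**Figure D3:**
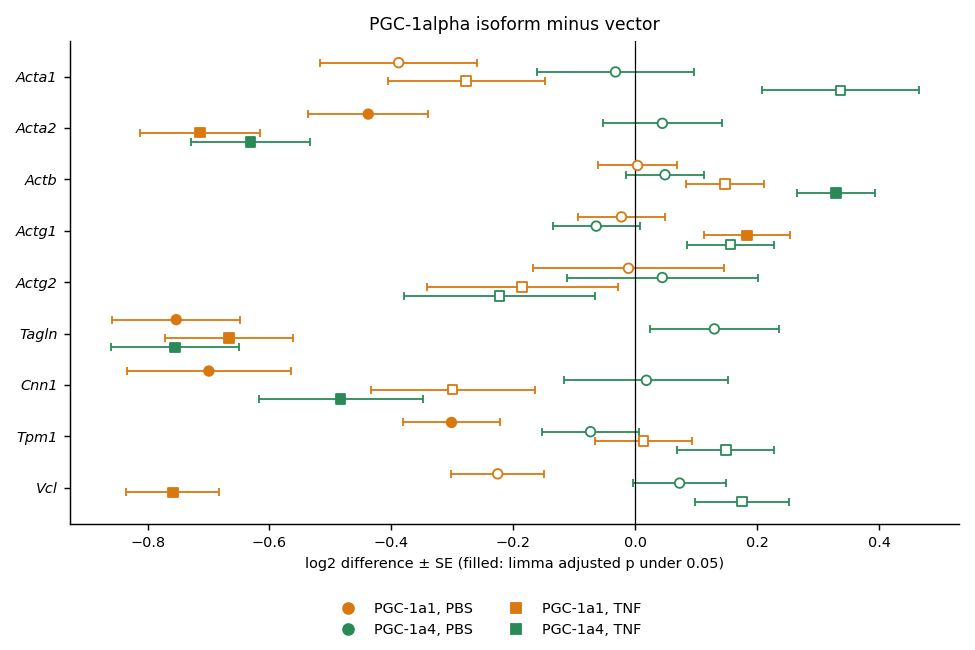
Log2 difference of PGC-1a1 or PGC-1a4 minus vector (x axis, ± SE) for the 9 genes (y axis), circles under PBS and squares under TNF, filled where the limma adjusted p was under 0.05. Acta2, Tagln and Cnn1 lie left of 0 with PGC-1a1 under both treatments and with PGC-1a4 under TNF, and near 0 with PGC-1a4 under PBS.

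Whether the difference between TNF and PBS arrays itself depended on the virus was tested with the interaction. Against vector, the difference was more negative with PGC-1a4 for Tagln (-0.89 ± 0.15, limma adjusted p = 0.000731) and Acta2 (-0.68 ± 0.14, limma adjusted p = 0.00298), and less negative for the brightest probe set of Actb (0.28 ± 0.09, limma adjusted p = 0.0436). These 3 of 9 calls, 1 higher and 2 lower, stand where 16% of all genes passed, 11.9% higher and 4.12% lower. The interaction of Cnn1 was -0.50 ± 0.19 (limma adjusted p = 0.0852). With PGC-1a1 against vector the interaction was called for Vcl (-0.53 ± 0.11, limma adjusted p = 0.0013) and Tpm1 (0.32 ± 0.11, limma adjusted p = 0.0486), where 25.5% of all genes passed, 13.4% higher and 12% lower. Between the PGC-1alpha forms, the difference was more negative with PGC-1a4 for Tagln (PGC-1a1 minus PGC-1a4 0.97 ± 0.15, limma adjusted p = 0.000172) and Cnn1 (0.90 ± 0.19, limma adjusted p = 0.00252), and lower with PGC-1a1 for Vcl (-0.64 ± 0.11, limma adjusted p = 0.00045), where 19.8% of all genes passed, 7.18% higher and 12.6% lower. The size of the Cnn1 value is uncertain, because PGC-1a4 TNF replicate 3, at 6.10, was below the lower quartile of the genes. The Tpm1 call was lost when any of the 12 arrays compared was left out except vector PBS replicate 1, PGC-1a1 PBS replicate 3 and PGC-1a1 TNF replicate 1, with values from 0.27 to 0.33. The Actb call was lost without any of its 12 arrays except vector PBS replicate 2, with values from 0.26 to 0.30. It was also lost with arrays centred on their medians (0.16, limma adjusted p = 0.241), and the second Actb probe set, which was higher in TNF arrays, gave 1.04 ± 0.14 (limma adjusted p = 0.000134).

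Markers of other cell types were read beside these results because Acta2, Tagln and Cnn1 are also genes of stellate and smooth muscle cells. Of 10 stellate cell or myofibroblast markers 9 were measured. Their mean level per array ran from 6.69 to 6.89 with vector, from 6.77 to 6.99 with PGC-1a1 and from 6.83 to 6.87 with PGC-1a4 under PBS, and the 3 groups overlapped. Under PBS with PGC-1a1 1 of the 9 was higher and 0 were lower than with vector, against 7.88% and 4.11% of all genes. Under TNF the ranges were 6.94 to 7.16 with vector, 6.61 to 6.73 with PGC-1a1 and 6.58 to 6.75 with PGC-1a4, so the vector arrays were above the others. Of the 9 markers 3 and 4 were lower with PGC-1a1 and PGC-1a4, against 20.5% and 12.3% of all genes. Group means of 3 to 6 of the 9 markers were below the lower quartile of the genes. Col3a1, a fibrillar collagen, had group means from 7.68 to 8.71 and Lrat, the retinol-storing enzyme of stellate cells, from 5.88 to 6.57. Of 5 smooth muscle markers 4 were measured, with list means per array from 6.89 to 7.01, 6.86 to 6.91 and 6.75 to 6.84 under PBS and from 7.06 to 7.31, 6.65 to 6.94 and 6.83 to 7.08 under TNF, in the order vector, PGC-1a1 and PGC-1a4. These 4, Myh11, Lmod1, Des and Myocd, also stand in the SRF gene lists below, and Des is also among the stellate markers. The smooth muscle list is therefore not a reading of cell type separate from the SRF programme. Of 7 endothelial markers 6 were measured, with list means from 7.27 to 7.41, 7.501 to 7.61 and 7.27 to 7.38 under PBS and from 7.98 to 8.10, 7.58 to 7.76 and 7.51 to 7.72 under TNF in the same order. Under TNF 3 of the 6 were lower with each form than with vector, against the same shares of all genes. The 5 hepatocyte markers had list means from 11.50 to 11.68, 11.27 to 11.54 and 11.45 to 11.82 under PBS and from 12.09 to 12.40, 12.73 to 12.96 and 12.84 to 12.86 under TNF. Under TNF the vector arrays were thus above those of both forms for the endothelial list and below them for the hepatocyte list. Of the 5 hepatocyte markers 1 and 3 were higher with PGC-1a1 and PGC-1a4, against 20.8% and 21.1% of all genes. Their differences from vector ran from 0.03 to 2.24 with PGC-1a1 (median 0.14) and from 0.03 to 1.70 with PGC-1a4 (median 0.39). For 4 of 5 cholangiocyte markers the TNF ranges were 7.49 to 7.95, 6.87 to 7.14 and 7.59 to 7.70, and for 2 of 7 macrophage markers 7.11 to 7.30, 6.50 to 6.89 and 6.68 to 6.93. The part of such cells in the differences of Acta2, Tagln and Cnn1 was not tested, and in bulk RNA fewer cells of a type and less RNA per cell cannot be told apart.

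A second probe set was held for 4 of the 9 genes, and for Actb and Vcl it moved against the brightest one between TNF and PBS arrays. The second Actb probe set read 10.56, 10.60 and 10.64 with vector, 10.69, 10.83 and 10.79 with PGC-1a1 and 9.53, 9.48 and 9.78 with PGC-1a4 under PBS. Under TNF it ranged from 12.73 to 13.05 over the 9 arrays. It was higher in TNF arrays by 2.31 ± 0.10 with vector (limma adjusted p = 1.06e-12), 2.08 ± 0.10 with PGC-1a1 (limma adjusted p = 7.34e-12) and 3.35 ± 0.10 with PGC-1a4 (limma adjusted p = 5.25e-14), where the brightest was lower. It was also lower with PGC-1a4 than with vector under PBS by -1.002 ± 0.10 (limma adjusted p = 3.37e-05), a difference that the brightest probe set did not show (0.05 ± 0.06). The direction of Actb between treatments therefore depends on the probe set.

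For Vcl the second probe set read 9.75, 9.87 and 9.87 with vector, 9.43, 9.68 and 9.72 with PGC-1a1 and 9.77, 9.50 and 9.66 with PGC-1a4 under PBS, and 7.45, 7.19 and 7.03, then 6.43, 6.49 and 6.94, then 6.95, 6.91 and 6.86 under TNF. It was lower in TNF arrays by -2.61 ± 0.13 with vector (limma adjusted p = 9.24e-12), -2.98 ± 0.13 with PGC-1a1 (limma adjusted p = 4.27e-12) and -2.74 ± 0.13 with PGC-1a4 (limma adjusted p = 7.08e-12). Within the TNF arrays both Vcl probe sets were lower with PGC-1a1 than with vector, the second by -0.60 ± 0.13 (limma adjusted p = 0.00138). The interaction of the second probe set for PGC-1a1 against vector was -0.37 ± 0.19 and did not pass (limma adjusted p = 0.176). Between PGC-1a1 and PGC-1a4 the second probe set lost every Vcl call. It gave -0.04 under PBS (limma adjusted p = 0.918) and -0.28 under TNF (limma adjusted p = 0.113). The interaction was -0.25 (limma adjusted p = 0.422).

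The second Tpm1 probe set moved with the first, by -1.34 ± 0.08 for vector, -1.21 ± 0.08 for PGC-1a1 and -1.20 ± 0.08 for PGC-1a4 between TNF and PBS arrays (limma adjusted p = 6.22e-11, 3.31e-10 and 2.95e-10). Under PBS it gave -0.17 ± 0.08 for PGC-1a1 against vector (limma adjusted p = 0.217). The third Tpm1 probe set and the second Acta2 probe set were dim, the latter with arrays between 4.20 and 4.89, and neither passed in any of the 12 comparisons. Positions of the probes within these genes were not analysed here.

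**Figure D4:**
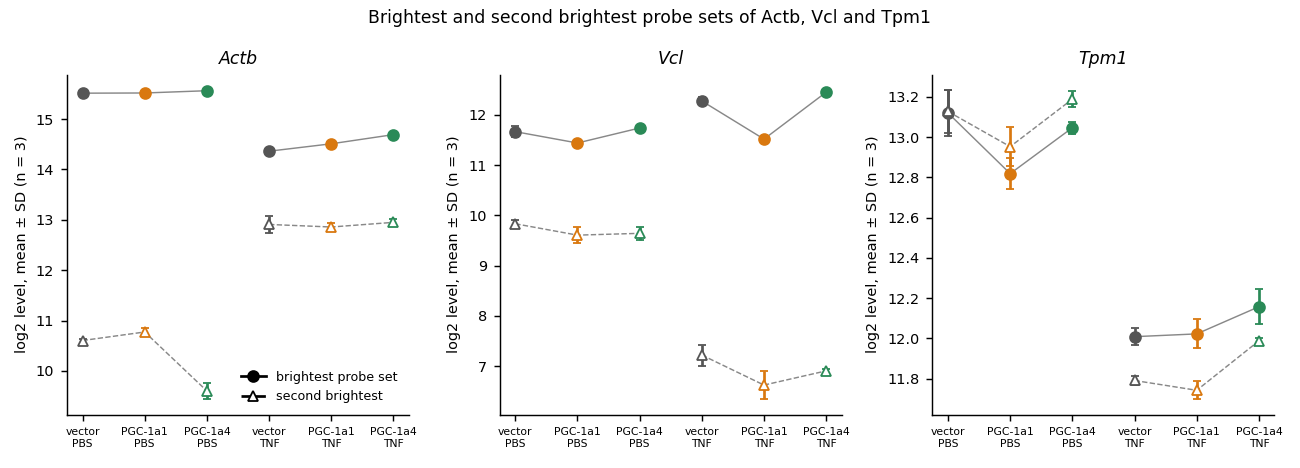
Log2 level, mean ± SD of 3 arrays (y axis), of the brightest (filled circles) and second brightest (open triangles) probe set of Actb, Vcl and Tpm1 in the 6 groups (x axis). From PBS to TNF arrays the brightest Actb probe set is lower and the second higher, the second Vcl probe set is lower while the brightest is higher with vector and PGC-1a4, and both of Tpm1 are lower.

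The genes also differed in how they varied within a treatment, which is given over the 18 arrays as a description after subtraction of each treatment's mean. Acta2, Tagln and Cnn1 varied together (r = 0.862 for Acta2 with Tagln, 0.874 for Tagln with Cnn1 and 0.828 for Acta2 with Cnn1). Actb and Actg1 had r = 0.596 with each other, and Actb had r = -0.522 with Acta2 and -0.484 with Tagln. Acta1 had r = 0.735 with Vcl, 0.67 with Tpm1 and 0.344 with Acta2. All these points share the virus groups, and after subtraction of group means the value was 0.738 for Acta2 with Cnn1, -0.082 for Acta2 with Tagln and 0.575 for Actb with Actg1. For Acta1 it was then -0.008 with Vcl, 0.261 with Tpm1 and 0.358 with Acta2, the reverse order.

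Over all 18 arrays, treatment included, the genes whose levels were most like those of each gene with a range over 1 log2 unit were named by Pearson's r. Acta1 was most like Cfl1, the actin-severing protein cofilin (r = 0.995), Glud1 (0.994) and Prame (0.992). Cnn1 was most like Pdxdc1 (0.985), Glud1 (0.984) and Fgfr2 (0.984). Acta2 and Tagln both had Lhfp first, at r = 0.968 and 0.975, followed by Aff4 and Usp14 (both 0.965) for Acta2 and by Cacul1 (0.963) and Nusap1 (0.96) for Tagln. Actb was most like Ecpas and Tmlhe (both 0.994) and fibronectin, Fn1 (0.993). Tpm1 was most like Iqgap3 (0.992), Mgat4b (0.99) and Ccna2 (0.988), Vcl like Samd4 (0.976), Cd24a (0.975) and Hmgn1 (0.974), and Actg2 like Clca4a and Ccnd1 (both 0.974) and Blk (0.973). Such values mostly carry the shared gap between the PBS and TNF arrays.

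SRF and its cofactors were examined next. The counts in this and the following gene lists stand beside the shares of all genes given above, which for TNF against PBS with vector were 34.7% higher and 36.6% lower. For PGC-1a1 against vector under PBS they were 7.88% and 4.11%, for PGC-1a1 under TNF 20.8% and 20.5%, and for PGC-1a4 under TNF 21.1% and 12.3%. All 7 genes of this list were measured, and 4 were lower and 1 was higher in the vector TNF arrays than in the vector PBS arrays. Srf itself had PBS group means of 10.20 ± 0.07 (SD, n = 3) for the vector, 10.41 ± 0.05 for PGC-1a1 and 9.96 ± 0.07 for PGC-1a4, and means of 8.74 ± 0.12, 9.08 ± 0.06 and 9.41 ± 0.08 under TNF. The TNF arrays of Srf were lower by -1.46 ± 0.08 with vector (limma adjusted p = 4.33e-11), -1.33 ± 0.08 with PGC-1a1 and -0.55 ± 0.08 with PGC-1a4 (limma adjusted p = 9.62e-06), and the difference was smaller with PGC-1a4 than with vector (interaction 0.91 ± 0.11, limma adjusted p = 8.42e-05). Under TNF Srf was higher than with vector in PGC-1a4 arrays (0.67 ± 0.08, limma adjusted p = 8.26e-06) and in PGC-1a1 arrays (0.34 ± 0.08, limma adjusted p = 0.00273), the latter not with the mean of its probe sets (0.15, limma adjusted p = 0.128).

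Mrtfa, the gene of the actin-sensing cofactor MRTF-A, followed a like order under TNF for PGC-1a4. Its group means were 9.20, 9.14 and 9.29 under PBS and 8.17, 8.05 and 8.83 under TNF for vector, PGC-1a1 and PGC-1a4. The PGC-1a4 TNF arrays of Mrtfa were above the vector ones by 0.67 ± 0.12 (limma adjusted p = 0.000405) and those of Mrtfb by 0.36 ± 0.08 (limma adjusted p = 0.00146). The interaction of Mrtfa, 0.58 ± 0.17 (limma adjusted p = 0.0294), was lost under quantile normalization (0.32), median centring (0.45) and cyclic loess (0.40). Elk4, a ternary complex factor, was higher in the TNF arrays of the vector (0.74 ± 0.09), of PGC-1a1 (0.95 ± 0.09) and of PGC-1a4 (0.84 ± 0.09), and with the mean of its probe sets these values became -0.10, -0.04 and -0.09. Myocd, the smooth muscle cofactor of SRF, had group means from 6.60 to 6.9995. In virus comparisons of the 7 genes, 0 were called with either form against vector under PBS, where 4 had an unadjusted limma p under 0.05 with PGC-1a1 and 1 with PGC-1a4.

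Other contractile and cytoskeletal targets of SRF were mostly lower in TNF arrays. Of 27 listed 24 were measured, of which 16 were lower and 1 higher in the vector TNF arrays than in the vector PBS arrays, 17 and 1 with PGC-1a1 and 17 and 2 with PGC-1a4. Under PBS 9 were lower and 1 was higher with PGC-1a1 than with vector, and 0 were called with PGC-1a4, where 4 had an unadjusted limma p under 0.05. Under TNF 10 were lower and 1 was higher with PGC-1a1 than with vector, against 20.5% and 20.8% of all genes. With PGC-1a4 3 were lower and 6 higher than with vector under TNF, against 12.3% and 21.1% of all genes. Actc1, the cardiac actin, read 11.38 ± 0.04 in the vector PBS arrays and 7.69 ± 0.11 (SD, n = 3) in the vector TNF arrays (-3.69 ± 0.13, limma adjusted p = 1.78e-13). It was the 1 gene of this list called higher with PGC-1a1 than with vector under TNF (0.80 ± 0.13, limma adjusted p = 4.9e-05). Tpm2, a second tropomyosin, was lower in TNF arrays with vector by -2.98 ± 0.10 (limma adjusted p = 1.52e-13). Flna, the actin cross-linker filamin A, was lower with PGC-1a1 than with vector, by -0.65 ± 0.09 under PBS (limma adjusted p = 7.5e-05) and by -0.77 ± 0.09 (limma adjusted p = 1.92e-06) under TNF. Actn4, an alpha-actinin, was lower in TNF arrays with vector by -1.89 ± 0.07 (limma adjusted p = 7.19e-13).

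Genes of actin assembly and turnover did not move one way. Of 34 listed 28 were measured, with 14 higher and 10 lower in the vector TNF arrays than in the vector PBS arrays. Cfl1 was lower by -3.30 ± 0.09 (limma adjusted p = 2.38e-14), Tmsb4x, which binds free actin, by -1.79 ± 0.07 (limma adjusted p = 1.3e-12) and Wdr1, a cofactor of cofilin, by -1.56 ± 0.09 (limma adjusted p = 4.25e-11). Cap1, which recycles actin monomers, was higher by 1.92 ± 0.10 (limma adjusted p = 2.24e-11). With PGC-1a1 against vector under PBS 3 of the 28 were lower and 1 was higher, and with PGC-1a4 0 were called, where 2 had an unadjusted limma p under 0.05. Under TNF 9 were lower and 1 was higher with PGC-1a1, and 4 were lower and 8 higher with PGC-1a4. These are 32.1% lower and 3.57% higher with PGC-1a1, against 20.5% and 20.8% of all genes, and 14.3% lower and 28.6% higher with PGC-1a4, near the 12.3% and 21.1% of all genes.

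The adhesion partners of vinculin were mostly lower in TNF arrays. Of 15 listed 13 were measured, with 10 lower and 2 higher with vector. Tln1, or talin, which recruits vinculin, was lower by -2.05 ± 0.10 (limma adjusted p = 4.82e-12), Tns1, or tensin, by -1.89 ± 0.08 (limma adjusted p = 1.19e-12), the integrin Itga5 by -1.23 ± 0.12 (limma adjusted p = 8.8e-08) and zyxin, Zyx, by -1.10 ± 0.09 (limma adjusted p = 9.34e-09). Under TNF 6 of the 13 were lower and 3 higher with PGC-1a1 than with vector, against 20.5% and 20.8% of all genes. With PGC-1a4 1 was lower and 5 were higher than with vector under TNF, against 12.3% and 21.1% of all genes. Under TNF Zyx was higher with PGC-1a4 than with vector (0.60 ± 0.09, limma adjusted p = 8.68e-05). Tns1 was higher than with vector under TNF with PGC-1a1 (1.08 ± 0.08, limma adjusted p = 3.34e-09) and PGC-1a4 (0.62 ± 0.08, limma adjusted p = 1.27e-05), and it was the 1 adhesion gene called with PGC-1a4 under PBS (0.47 ± 0.08, limma adjusted p = 0.0112).

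Of 10 listed immediate early targets of SRF 9 were measured, with 5 higher and 2 lower in the vector TNF arrays than in the vector PBS arrays. These are 55.6% higher and 22.2% lower, against 34.7% and 36.6% of all genes, and with 9 genes nothing is read from the shares. Egr1 was higher by 2.21 ± 0.11 with vector (limma adjusted p = 9.6e-12), 1.62 ± 0.11 with PGC-1a1 (limma adjusted p = 6.48e-10) and 1.30 ± 0.11 with PGC-1a4 (limma adjusted p = 8.1e-09). Fos was higher by 1.90 ± 0.09 with vector (limma adjusted p = 4.41e-12), 1.20 ± 0.09 with PGC-1a1 (limma adjusted p = 1.83e-09) and 1.46 ± 0.09 with PGC-1a4 (limma adjusted p = 1.31e-10). Under PBS 3 of the 9 were higher and 0 lower with PGC-1a1 than with vector, among them Fos (0.64 ± 0.09, limma adjusted p = 5.95e-05) and Ier2 (0.33 ± 0.10, limma adjusted p = 0.0454), while the contractile genes Tagln and Cnn1 were lower in the same arrays.

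Targets of YAP and TEAD, another programme tied to actin tension, included 2 genes on which PGC-1a1 and PGC-1a4 stood on opposite sides of vector under TNF. Of 8 listed 7 were measured. Ccn2, a matricellular growth factor, read 13.54 ± 0.09, 13.52 ± 0.04 and 13.67 ± 0.07 under PBS and 11.74 ± 0.05, 10.61 ± 0.42 and 12.71 ± 0.14 under TNF for vector, PGC-1a1 and PGC-1a4. Under TNF it was lower than with vector by -1.13 ± 0.14 with PGC-1a1 (limma adjusted p = 3.82e-06) and higher by 0.97 ± 0.14 with PGC-1a4 (limma adjusted p = 5.04e-05). Ajuba, an adhesion scaffold, did the same (-0.82 ± 0.13, limma adjusted p = 5.7e-05, and 0.67 ± 0.13, limma adjusted p = 0.000717). Ankrd1 was lower with PGC-1a1 under both treatments (-0.78 ± 0.18 and -0.81 ± 0.18, limma adjusted p = 0.00587 and 0.00117). In all 5 of 7 were lower and 0 higher with PGC-1a1 under TNF, and 3 were higher and 2 lower with PGC-1a4.

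**Figure D5:**
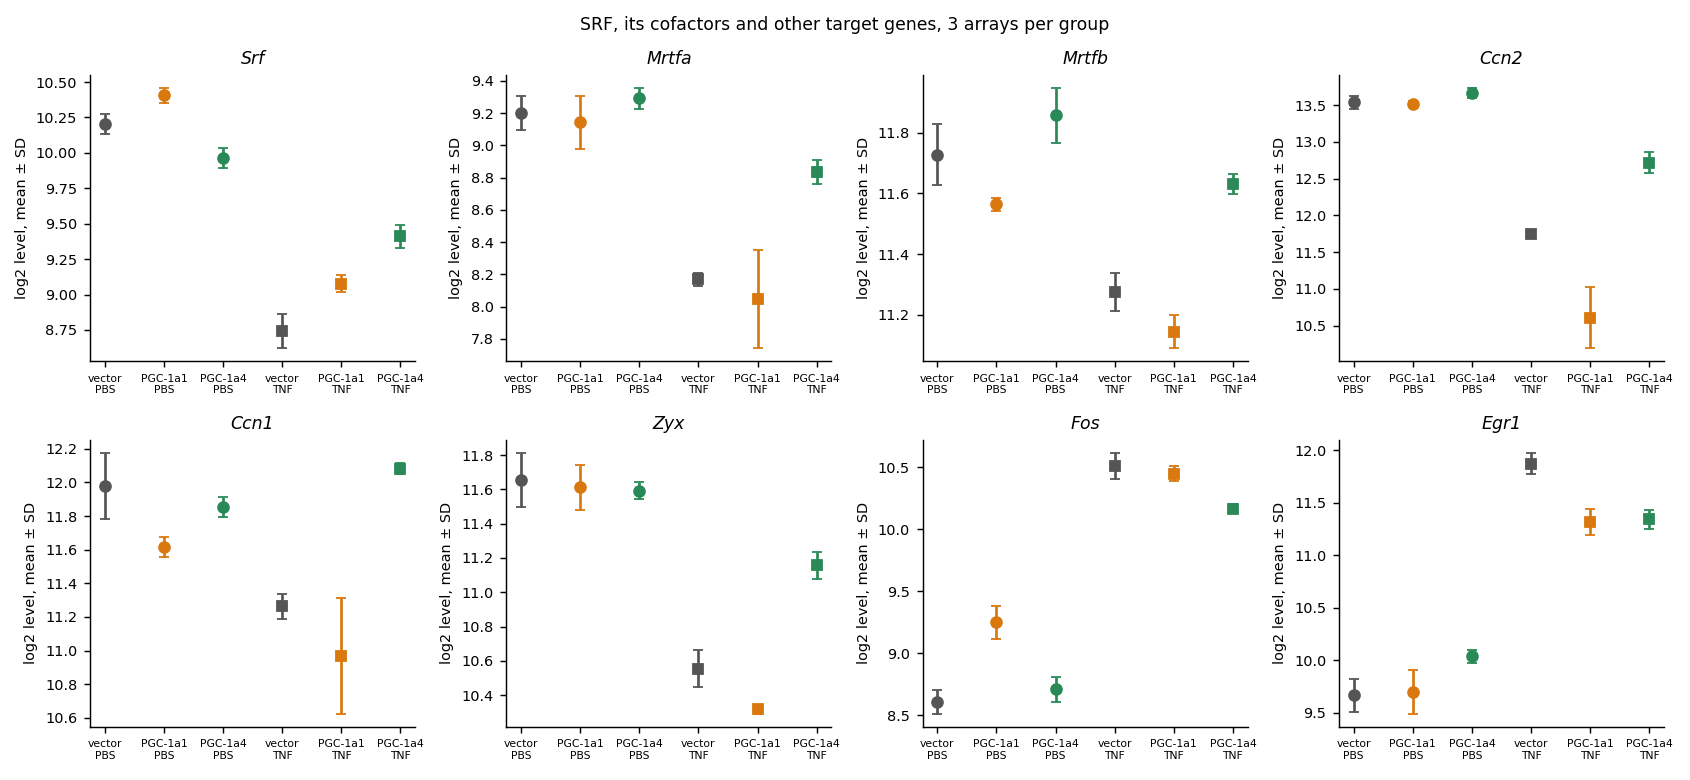
Log2 level, mean ± SD of 3 arrays (y axis), of Srf, its cofactors Mrtfa and Mrtfb, the tension-linked genes Ccn2, Ccn1 and Zyx, and the immediate early genes Fos and Egr1 in the 6 groups (x axis), circles PBS and squares TNF. Under TNF the PGC-1a4 group lies above the vector group for the first 6 genes, and Fos and Egr1 are higher in TNF than in PBS arrays.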

How the data were processed

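Total RNA from 18 arrays of primary hepatocytes was analysed, with 3 arrays in each of 6 groups taken from the labels. The authors deposited log2 expression values, and the submitters' processing notes name RMA and affy. RMA removes background, scales arrays to one another and joins a set's probes into 1 value, which compresses large folds. The tool versions, and the arrays that shared a normalization, were not stated in what was used. Signal over background was not analysed here, and the number of arrays limits the precision.

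The table ended inside a row, so 1 of 33246 rows was dropped and 33245 probe sets were used, with values from 3.37 to 15.99. Of these 25951 named 1 gene, 686 several and 6608 none, and 25803 were matched by identifier to RefSeq of GRCm38.p6, which gave 15491 genes, 6488 of them with several probe sets.

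All 18 arrays entered 1 limma 3.58.1 fit (R 4.3.3) with a mean for each group (12 residual and 5.08 prior degrees of freedom), and 12 contrasts, 9 of 2 groups and 3 interactions, were tested two-sided with Benjamini-Hochberg adjustment over all genes and a threshold of 0.05. Differences are given ± SE. The fit was tested on simulated data. Promoter windows came from RefSeq, and figures were drawn with matplotlib 3.10.9.

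The members and gene lists were chosen with earlier results of these data known. Named were the 10 listed genes, from each list at most 4 genes with the smallest p in any contrast of 2 groups, SRF with its cofactors, and for genes with a range over 1 the 3 genes with the highest r. Pseudogenes and predicted genes enter the counts without being named. The results of 1 gene list are not reported here. Marker genes printed beside the results, and Ccn1 and Zyx as drawn, illustrate their lists. Alternatives were array weights, other moderation, the replicate number as a block, 3 scalings, removal of dim genes, the mean or the second of a gene's probe sets, an adjusted p of 0.01, a minimum fold of 1.5, fits of fewer arrays, and each array left out.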

Additional observations from a re-analysis of the deposited data

Results flagged for a closer look

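For 8 combinations of gene and comparison the difference between TNF and PBS arrays itself differed between viruses by the interaction test of limma. The shares of all genes that passed were 25.5% for PGC-1a1 against vector, 16% for PGC-1a4 against vector and 19.8% between the forms. Against vector, the interaction with PGC-1a1 was 0.32 for Tpm1 (limma adjusted p = 0.0486) and -0.53 for Vcl (limma adjusted p = 0.0013). With PGC-1a4 it was -0.68 for Acta2 (limma adjusted p = 0.00298), 0.28 for Actb (limma adjusted p = 0.0436) and -0.89 for Tagln (limma adjusted p = 0.000731). Between PGC-1a1 and PGC-1a4 it was 0.97 for Tagln (limma adjusted p = 0.000172), 0.90 for Cnn1 (limma adjusted p = 0.00252) and -0.64 for Vcl (limma adjusted p = 0.00045). The Tagln value of -0.89 is made of a difference of 0.13 between PGC-1a4 and vector under PBS and of -0.76 under TNF. That of Vcl with PGC-1a1 is made of -0.23 under PBS and -0.76 under TNF. The second Vcl probe set passed in neither comparison (limma adjusted p = 0.176 against vector and 0.422 against PGC-1a4). The Tpm1 and Actb calls were lost in most fits that left out 1 of the compared arrays. For Cnn1 the size is uncertain, because its TNF arrays lay near the lower quartile of the genes. No technical or biological explanation was tested.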

How the results depend on the processing

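Of 1278 values of the 9 genes refitted in other settings, 1136 kept their side of the threshold, 61 lost the call and 61 gained one. A further 20 changed direction and were called in the main fit, the refit or both. Values called in neither fit could change direction and still count among the 1136. The stricter threshold and the minimum fold reuse the differences of the main fit. Of 810 without 1 array, 765 kept their side, 38 lost and 7 gained the call. By the same rule 0 of these changed direction. The count for PGC-1a4 against vector under TNF, 4, became 7 with trend and robust moderation, 7 among genes above the median level and 2 at 1.5-fold or more. That for PGC-1a1 against vector under PBS, 4, became 2 with the mean of the probe sets and 2 at 1.5-fold or more, that for PGC-1a4 against vector under PBS, 0, became 1 with the mean of the probe sets, and that for PGC-1a1 against PGC-1a4 under PBS, 4, became 2 at 1.5-fold or more. The interaction count for PGC-1a1 against vector, 2, became 1 with the replicate block, the mean of the probe sets, an adjusted p of 0.01 or the compared arrays alone, and 0 at 1.5-fold or more. Without single arrays it was 1 to 2.

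Direction changed with the probe set. With the mean of the probe sets, Actb became -0.48 for PGC-1a4 against vector and 0.56 for PGC-1a1 against PGC-1a4 under PBS, and 0.58, 0.54 and 1.24 for TNF against PBS with vector, PGC-1a1 and PGC-1a4, and Vcl became -1.0005, -1.45 and -1.01. With the second brightest probe set alone the same values were -1.002, 1.17, 2.31, 2.08 and 3.35 for Actb and -2.61, -2.98 and -2.74 for Vcl. Acta2 became 0.12 with vector and 0.017 with PGC-1a1, but its second probe set was dim, with arrays between 4.20 and 4.89. Neither Acta2 value passed (limma adjusted p = 0.444 and 0.921), so they show no change of direction. Vcl with PGC-1a1 became -0.45 under quantile normalization and -0.34 under cyclic loess, and 0.19, called higher, with median centring. The cause was not tested. Median centring moved the median of all genes by 0.12 and 0.11 for TNF against PBS with vector and PGC-1a1, and by -0.12 and 0.11 for the interactions of PGC-1a4 against vector and of PGC-1a1 against PGC-1a4.

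The labels do not tell whether replicate numbers pair the arrays, and the values did not settle it. Deviations of same-numbered arrays had r from -0.135 to 0.227 over 45 pairs, 5 of them over 0.1, others from -0.251 to 0.302, and 9 of 18 arrays were closest to their own number. The replicate block lost the calls of Actg1 for PGC-1a1 against vector under TNF (0.18), Tpm1 for the PGC-1a1 interaction (0.32) and Actb for the PGC-1a4 interaction (0.28), and gained that of Acta2 for the interaction of PGC-1a1 against PGC-1a4 (0.40). Dim genes such as Actg2, and 3 arrays per group, limit what can be seen.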
